A study of Sus scrofa with 21 samples.

Results

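CEBPD, ZBTB16, KLF15, FKBP5, PER1, HIF3A, KLF9, ANGPTL4, PDK4 and BCL6 are genes that respond to glucocorticoids, and they were followed here through every library of a pig vessel sampling study. They are 10 of the 24358 genes in the table, and all 10 were found by their symbol. They were chosen by their measured values, as glucocorticoid-responsive genes that were lower on a microbrush than in aorta, so that difference is described below and not tested. The study sequenced total RNA from 21 libraries of 3 pigs (Sus scrofa). A 3D-printed microbrush, a device meant to pick up the cells that line a vessel, gave 10 libraries from peripheral arteries of the kidney (5) and liver (5) of pigs 243K and 248K. The negative control was a Nitinol wire with no brush on it, used in kidney and liver arteries of the same pigs (4 libraries). The positive control was aorta taken out by surgery (4 libraries, all of pig 237053). Whole blood added 3 libraries, of which blood 1 and 2 were drawn from pig 243K and blood 3 from pig 248K. The labels name no treatment of the pigs. The aorta differs from the catheter libraries in animal, vessel and way of sampling at once, and these cannot be told apart. Libraries of 1 pig are not separate animals, so p-values below measure the spread between libraries.

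Glucocorticoids such as cortisol cross the cell membrane and bind the glucocorticoid receptor NR3C1, which waits in the cytoplasm in a complex with HSP90 and its partners. The bound receptor moves to the nucleus and raises or lowers the transcription of many genes. FKBP5 is among the most widely used markers of this response and holds the receptor in a less active state, which makes it a feedback gene. In the vessel wall the receptor acts in endothelial, smooth muscle and immune cells, where it is known for damping inflammation and for changing vascular tone. Several of the 10 genes also answer to other inputs: PER1 to the circadian clock, PDK4 and ANGPTL4 to fasting and fatty acids, HIF3A to low oxygen and BCL6 to signals in lymphocytes.

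Total counts ran from 1144932 to 11128400 in the catheter libraries, from 1603229 to 3033008 in aorta, and were 5301288, 5634 and 3224540 in blood. Blood 2, with 5634 counts, had no count for any of the 10 genes and is left out below. Library content differed widely: 6 microbrush libraries had counts for 18609 to 20001 genes, close to the 19357 to 20028 of aorta, while microbrushes 4, 5, 6 and 9 had 3831 to 16499, and wires 2 and 3 had 9714 and 10165. Genes of liver cells give a measure of how low a level still means little. ALB, the albumin made by hepatocytes, stood at 8.74 to 20.3 counts per 1000000 (CPM) in aorta and at 7.25 and 13.6 CPM in blood. Several of the 10 genes had levels of that size on the microbrush. In aorta HIF3A (10.2 to 24.3 CPM) and ANGPTL4 (12.9 to 22.6 CPM) had them too. LRP2, a kidney tubule gene named after its value was seen, stood higher, at 34.5 to 48.8 CPM in aorta and 11.6 and 35.9 CPM in blood. PDK4 in aorta (23.8 to 52.5 CPM) overlapped that range. The labelled tissues showed their defining genes: the summed level of 15 smooth muscle markers was 31360 to 64960 CPM in aorta and 960 and 575.5 CPM in blood 1 and 3, and that of 11 erythroid markers was 183 to 259.5 CPM in aorta and 43180 and 28280 CPM in blood 1 and 3. The 14 endothelial markers summed to 233 to 330 CPM in aorta, 294 to 4231 CPM on the microbrush, 351 to 1927 CPM on the wire, and 222 and 262 CPM in blood.

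**Figure D1:**
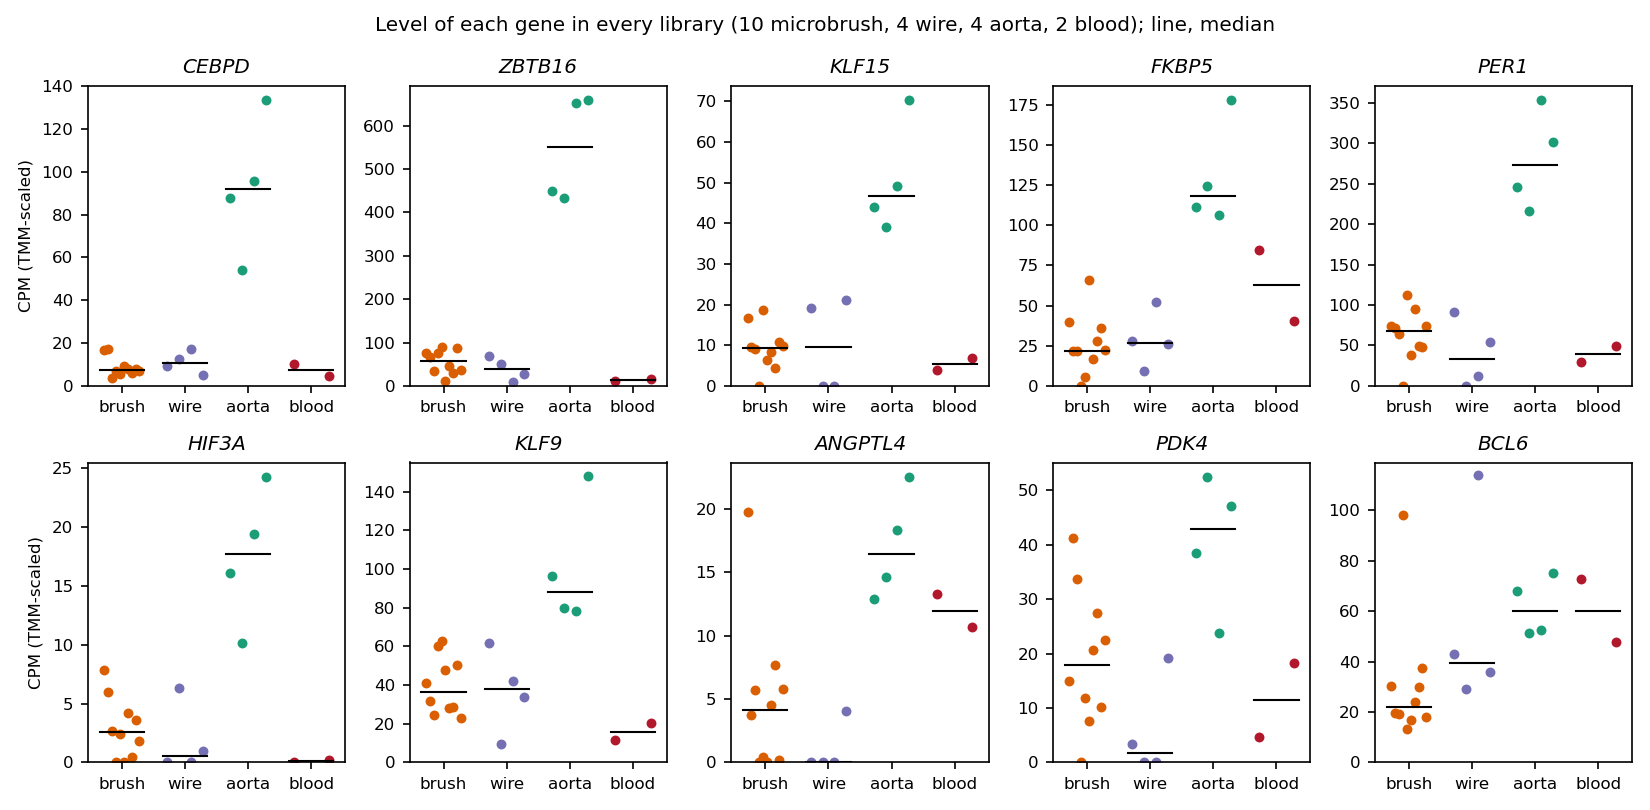
Level of each of the 10 genes (y axis, CPM after TMM scaling, linear from 0) in every library of 4 groups (x axis); points are libraries and lines are medians. In 7 of the 10 genes the 4 aorta points lie above all 10 microbrush points, while ANGPTL4, PDK4 and BCL6 overlap.

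CEBPD and ZBTB16, both transcription factors, had the most negative fitted changes of the 10 genes on the microbrush against aorta. CEBPD, a C/EBP family factor of inflammation and differentiation (chromosome 4, 79872863 to 79874481, Sscrofa11.1), had 87.8, 54.2, 95.8 and 134 CPM in aorta libraries 1 to 4. On the microbrush its lowest, median and highest levels were 3.79, 7.58 and 17.5 CPM, on wires 1 to 4 it had 9.14, 12.7, 17.5 and 5.06 CPM, and in blood 1 and 3 it had 10.2 and 4.72 CPM. The highest catheter or blood library therefore lay below the lowest aorta library, and the microbrush, wire and blood levels overlapped each other. The median in aorta was 12.1 times that on the microbrush, and the fitted log2 fold change of microbrush minus aorta was -3.36 (SE 0.63). ZBTB16, a zinc finger repressor also called PLZF (chromosome 9, 41639536 to 41839254), had 448, 434, 651 and 659 CPM in aorta. Its microbrush levels ran from 10.4 over a median of 57.1 to 90.8 CPM, and the wires had 68.3, 50.2, 10.1 and 28.3 CPM. Blood had 11.8 and 16.6 CPM, so ZBTB16 was high in aorta, low in blood, and variable on the catheter, where the lowest libraries overlapped blood. Its aorta median was 9.63 times that of the microbrush, with a fitted change of -3.30 (SE 0.63).

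KLF9 and KLF15 are Krüppel-like zinc finger factors that the receptor induces in many tissues, and KLF15 is known for control of amino acid and fuel metabolism. KLF15 (placed on chromosome 7, 53877813 to 53890558, by its symbol alone, which leaves the position unsure) had 44.1, 39.1, 49.1 and 70.2 CPM in aorta. It ran from 0 over 9.37 to 18.7 CPM on the microbrush and was 19.0, 0, 0 and 21.2 CPM on wires 1 to 4, against 3.94 and 6.98 CPM in blood. All aorta libraries stood above all others, and wires 2 and 3, without a count, were those with the fewest genes. KLF9 (chromosome 1, 223723613 to 223747661) differed less, with 96.2, 80.0, 78.4 and 148 CPM in aorta and 22.9, 36.4 and 62.7 CPM as lowest, median and highest on the microbrush. The wires had 61.7, 9.28, 42.1 and 33.9 CPM and blood had 11.6 and 20.1 CPM. Its groups did not overlap between aorta and the catheter, but the gap was narrow, from 62.7 to 78.4 CPM. The fitted microbrush minus aorta changes were -2.42 (SE 0.76) for KLF15 and -1.33 (SE 0.58) for KLF9. BCL6, a repressor of lymphocyte and inflammatory genes (chromosome 13, 125377247 to 125401328), had 67.9, 51.5, 52.6 and 75.3 CPM in aorta. On the microbrush it ran from 13.4 over 21.9 to 98.1 CPM, on the wires it was 43.2, 29.1, 114.003 and 35.9 CPM, and blood had 72.7 and 47.6 CPM. BCL6 in blood thus overlapped aorta, and microbrush 4 and wire 3 exceeded every aorta library.

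FKBP5, the co-chaperone that restrains the receptor (chromosome 7, 31441764 to 31550704), had 111.6, 124, 106.2 and 178 CPM in aorta. The microbrush ran from 0 over 22.0 to 66.0 CPM and the wires had 27.7, 9.28, 52.1 and 26.3 CPM. Blood, with 84.7 and 40.7 CPM, lay below all aorta libraries. Blood 1 was above every microbrush library and blood 3 above all but microbrush 6. The fitted microbrush minus aorta change was -2.32 (SE 0.73). PER1, a repressor of the circadian clock that glucocorticoids also induce directly (chromosome 12, 53361863 to 53376723), had 245, 216, 353 and 302 CPM in aorta. It ran from 0 over 68.2 to 112.4 CPM on the microbrush, was 91.4, 0, 12.2 and 54.1 CPM on the wires, and 29.6 and 49.3 CPM in blood. The highest library outside aorta (112.4 CPM) lay well below the lowest aorta library (216 CPM), and the fitted change was -2.15 (SE 0.72). HIF3A, a member of the hypoxia-inducible factor family that can restrain the others (chromosome 6, 52342893 to 52376339), was low throughout, with 16.1, 10.2, 19.4 and 24.3 CPM in aorta. The microbrush ran from 0 over 2.55 to 7.83 CPM and the wires had 0, 6.33, 0 and 1.01 CPM, while blood had no count in blood 1 and 1 count in blood 3. The groups did not overlap, but a level of 3 counts is already 0.489 to 1.45 CPM on the microbrush, and the fitted change of -2.56 (SE 0.93) rests on few counts.

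PDK4 and ANGPTL4 are the fuel genes among the 10. PDK4 is a kinase that shuts off pyruvate dehydrogenase and so spares glucose (chromosome 9, 75246956 to 75260134). It had 38.5, 52.5, 23.8 and 47.2 CPM in aorta, 0, 17.9 and 41.2 CPM as lowest, median and highest on the microbrush, 3.30, 0, 0 and 19.2 CPM on the wires, and 4.76 and 18.3 CPM in blood. ANGPTL4, a secreted inhibitor of lipoprotein lipase (chromosome 2, 70905767 to 70912892), had 12.9, 14.6, 18.4 and 22.6 CPM in aorta, 0, 4.11 and 19.7 CPM on the microbrush, 0, 0, 0 and 4.05 CPM on the wires, and 13.3 and 10.7 CPM in blood. Both overlapped between aorta and microbrush, and ANGPTL4 in blood reached the level of the lowest aorta library. The fitted microbrush minus aorta changes were -1.08 (SE 0.79) for PDK4 and -1.83 (SE 1.01) for ANGPTL4.

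Set against all genes, 7 of the 10 had every aorta library above every microbrush library, a pattern that 1.43% of the 16776 genes tested showed. The same 7 (CEBPD, ZBTB16, KLF15, FKBP5, PER1, HIF3A and KLF9) stood above every microbrush and wire library, against 1.11% of all genes. Nothing is read from either count, because the members were picked on this difference. The weakest fitted change among the 10 was -0.99 (SE 0.65) for BCL6, after -1.08 for PDK4. Just outside the choice lay other glucocorticoid-induced genes with changes of similar size: FGD4 (-1.46, SE 0.77), CDKN1C (-1.43, SE 0.93) and MAP3K6 (-0.997, SE 0.77), named after their values were seen. The median over the 10 was -2.23, and over all genes it was -0.17. RLE scaling moved the latter to -0.33 and the former to -2.51. Each of the 10 stayed negative under all 11 alternatives run (10 for HIF3A and ANGPTL4, which a minimum count of 50 removed). That sign is what the members were picked for, so nothing is read from it either.

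**Figure D2:**
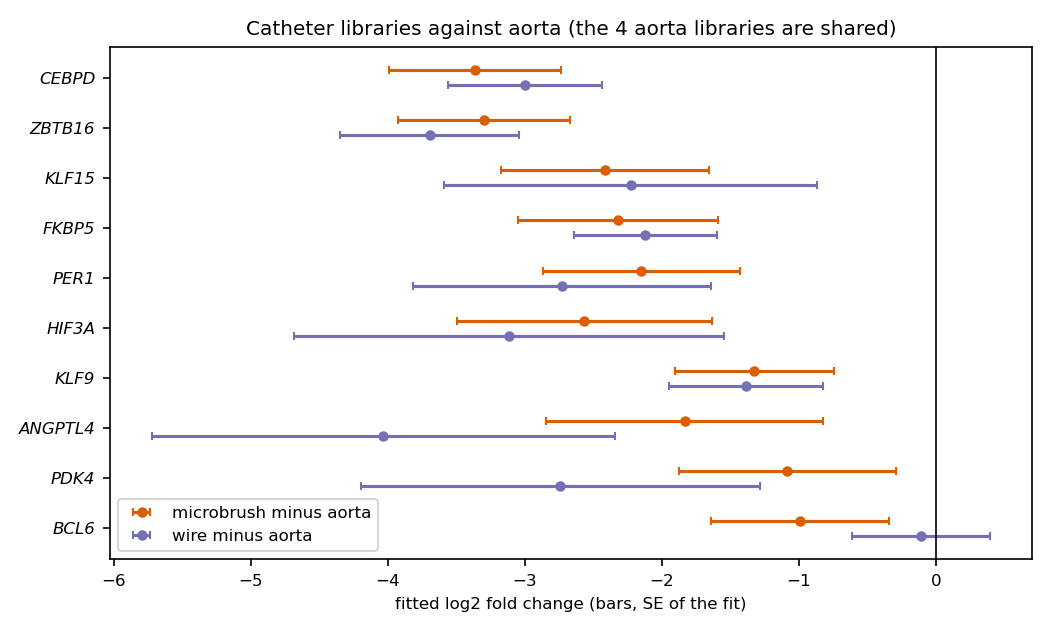
Fitted log2 fold changes (x axis, bars are the SE of the fit) of the 10 genes (y axis) for microbrush minus aorta and wire minus aorta. Every point is negative, from -3.36 to -0.99 for the microbrush and from -4.03 to -0.11 for the wire. Both comparisons use the same 4 aorta libraries, and the ANGPTL4 wire value (-4.03) rests on 3 wires without a count, so its size depends on the fit's prior count.

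The wire libraries were not used to choose the members, although the aorta libraries they are set against were, so the values are given side by side with no test. The fitted wire minus aorta changes were -2.999 (SE 0.56) for CEBPD, -3.69 (SE 0.65) for ZBTB16, -2.12 (SE 0.52) for FKBP5 and -1.38 (SE 0.56) for KLF9. Those of KLF15, PER1, HIF3A and PDK4 lay between -3.12 and -2.23 with SEs over 1. BCL6, at -0.11 (SE 0.50), was near 0. In 9 of the 10 genes, all but BCL6, every aorta library stood above every wire library, as in 13.7% of 15313 genes. Without wires 2 and 3 it was 10 of 10, as in 19.7% of genes. Between the microbrush and the wire the 10 genes were mixed, with 6 positive and 4 negative fitted changes from -0.84 (BCL6, SE 0.81) to 2.17 (ANGPTL4, SE 1.77), and a median of 0.27 where all genes had 0.17. Apart from ANGPTL4, PDK4 (1.66, SE 1.38) and BCL6, every change was smaller than its SE. Against blood, every aorta library stood above both blood libraries in 8 of the 10 genes, all but ANGPTL4 and BCL6, as in 24.1% of 17082 genes. Under RLE scaling it was 10 of 10, as in 44.1% of genes. Nothing is read from the wire or blood counts, because the members were picked for being high in these same aorta libraries. Fitted aorta minus blood changes had a median of 2.52 over the 10 genes, where all genes had 0.15. Leaving aside HIF3A, which had 1 count in blood, they ran from -0.24 (BCL6, SE 0.45) to 5.04 (ZBTB16, SE 0.77). That of FKBP5 was 0.76 (SE 0.52).

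In bulk RNA, fewer cells of a type and less RNA per cell cannot be told apart, so the levels of cell markers are given beside these values. The 10 genes together summed to 1077 to 1660 CPM in aorta, 202 to 337 CPM on the microbrush, 116.8 to 324 CPM on the wire, and 243 and 215 CPM in blood 1 and 3. Smooth muscle markers had medians of 38500 CPM in aorta, 34430 CPM on the microbrush, 5849 CPM on the wire and 768 CPM in blood, and their range on the microbrush, 3531 to 119600 CPM, spanned that of aorta. Microbrushes 2, 3, 4, 8 and 10 lay below every aorta library (3531 to 27350 CPM), microbrushes 1, 6 and 7 within the aorta range (41510 to 56070 CPM), and microbrushes 5 and 9 above it (118400 and 119600 CPM), the latter pair with 324 and 292 CPM of the 10 genes. Of 15 such markers tested, 9 were positive and 6 negative on the microbrush against aorta, with a median of 0.20 (-0.36 under RLE scaling), and 0 passed (2 at an unadjusted p under 0.05). In the 6 microbrush libraries with the most genes the muscle median was -0.69, while that of the 10 genes was -2.01. Fibroblast markers summed to 2922 to 7232 CPM in aorta and 216.5 to 65000 CPM on the microbrush, with a median change of 0.10 (-0.89 in the 6 libraries). On the wire both lists were lower along with the 10 genes. The smooth muscle median was -3.43 against aorta, with 6 of 15 markers called lower, and the fibroblast median was -2.64, with 2 of 10 called lower, where 0.764% of all genes were.

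The summed level of monocyte and macrophage markers was also highest in aorta. Their 11 genes summed to 531 to 1332 CPM in aorta, 212.5 to 427.5 CPM on the microbrush, 139 to 347 CPM on the wire, and 399 and 344 CPM in blood 1 and 3, so aorta did not overlap the others. On the microbrush 10 of 11 were negative against aorta (median -0.54, and -0.12 in the 6 libraries with the most genes), and 0 passed (2 at an unadjusted p under 0.05). Much of that sum was VCAN, a matrix proteoglycan that smooth muscle and fibroblasts also make, with 330 to 1020 CPM in aorta and 88.3 to 364 CPM on the microbrush. Taken singly, each of the 11 markers overlapped between aorta and microbrush. LYZ went the other way, with 0 to 86.3 CPM on the microbrush and 0 to 0.993 CPM in aorta. Adipocyte markers, for fat around the aorta, summed to 290 to 389 CPM in aorta, 0 to 287 CPM on the microbrush, 38.1 to 201 CPM on the wire, and 106.5 and 162 CPM in blood 1 and 3. Aorta again did not overlap the others, but the gap to the microbrush, from 287 to 290 CPM, was narrow. All 10 adipocyte markers tested were negative on the microbrush against aorta (median -0.41, and 0.01 in the 6 libraries), and 0 passed (0 at an unadjusted p under 0.05). PLIN4, a lipid droplet protein, had the highest aorta mean of these markers and so carried much of their sum. It averaged 138 CPM in aorta (87.9 to 226), 42.2 ± 33.9 CPM (SD) on the microbrush and 14.8 CPM on the wire (8.89 to 22.8). It was the 1 adipocyte marker called lower on the wire. ADIPOQ, the adipokine that defines fat cells, overlapped between groups, with 24.3 to 52.8 CPM in aorta, 0 to 67.7 CPM on the microbrush, 0 to 70.4 CPM on the wire and 17.8 and 42.1 CPM in blood. VCAN, LYZ, PLIN4 and ADIPOQ were named after their values were seen. The part of these cell types in the levels of the 10 genes was not tested.

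Other genes of the pathway were compared between microbrush and aorta, and by edgeR none of them passed. The 10 genes, picked for being low in this comparison, are not in these lists. The lists therefore cannot say whether the receptor system as a whole differed. In the 6 response lists 0 of 141 genes were called, where 0.125% of all genes were. DESeq2 called 3 (1.26% of all genes) and limma voom 11 (4.48% of all genes). With the 6 microbrush libraries that had the most genes, 3 of 138 were called, as were 1.4% of all genes. The receptor and its handling genes, 22 tested of 24 listed, had 17 positive and 5 negative changes with a median of 0.59 (0.16 under RLE scaling and -0.06 by limma voom), with 0 at an unadjusted p under 0.05. NR3C1 itself averaged 62.1 ± 28.8 CPM over the 10 microbrush libraries (SD), 57.3 ± 32.4 CPM over the 4 wires and 43.3 ± 5.31 CPM over the 4 aorta libraries. Blood 1 and 3 had 91.1 and 57.5 CPM of it. Its change of 0.53 (SE 0.79) was within the spread between libraries. The acetyltransferase CREBBP (0.43, SE 0.83) and the chaperone HSP90AB1 (0.48, SE 0.79) did not pass either.

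Other genes known to be induced by glucocorticoids, 46 tested of 60 listed, had 16 positive and 30 negative changes. TSC22D3, MAOA and GLUL, which are standard targets of the receptor, matched no row by symbol and were not analysed here. The median of the 46 tested genes, -0.22 (-0.51 under RLE scaling), lay near the -0.17 of all genes. Since the 10 genes were taken from this kind of gene for being low, those that remain are not a free sample. FBXO32, a ubiquitin ligase of muscle wasting, had 291 ± 343 CPM on the microbrush and 317 ± 133 CPM in aorta (-0.11, SE 1.01). FOXO3, a factor of the fasting response, had a mean of 156 against 245 CPM (-0.64, SE 0.66). STEAP4, a metalloreductase of inflammation and metabolism, lay the other way with 123 ± 157 against 38.0 ± 11.5 CPM (1.72, SE 0.91). ANXA1, an anti-inflammatory annexin named after its value was seen, was the 1 gene of this list at an unadjusted p under 0.05 (1.49, SE 0.72, edgeR adjusted p = 1).

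Inflammatory genes that glucocorticoids hold down, 18 tested of 27, had 6 positive and 12 negative changes with a median of -0.52, and 1 had an unadjusted p under 0.05. CXCL10 (0.55, SE 0.75), VCAM1 (0.50, SE 1.18) and CXCL2 (-0.53, SE 0.80) had the highest levels, by the larger of the microbrush and aorta means. In the 6 microbrush libraries with the most genes, VCAM1 (-2.58, edgeR adjusted p = 0.00367), the adhesion molecule ICAM1 (-1.59, adjusted p = 0.0128) and the chemokine CCL2 (-2.03, adjusted p = 0.0341) were lower than in aorta. Over all 10 microbrush libraries ICAM1 had 0.04 (SE 0.99) and CCL2 had -1.98 (SE 0.95). VCAM1 and ICAM1 thus changed sign between the run on all 10 and that on 6, and CCL2 did not. Clock genes other than PER1, 17 tested of 19, had 5 positive and 12 negative changes with a median of -0.31, none with an unadjusted p under 0.05. Their members CIART (0.56, SE 0.69) and CLOCK (0.27, SE 0.65) were within the spread. Fasting and PPAR genes, 22 tested of 24, had a median of -0.07, with 1 at an unadjusted p under 0.05. TXNIP (0.52, SE 0.66) and PPARD (0.21, SE 0.62) were among those with the highest levels. Hypoxia genes, 18 tested of 22, had a median of 0.03 (-0.14 under RLE scaling) and 5 at an unadjusted p under 0.05. The glycolytic ALDOA (4.08, SE 1.28, edgeR adjusted p = 0.312), the endothelial factor EPAS1 (2.18, SE 1.02) and ENO1 (1.47, SE 0.92) had the highest levels there by the same measure.

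**Figure D3:**
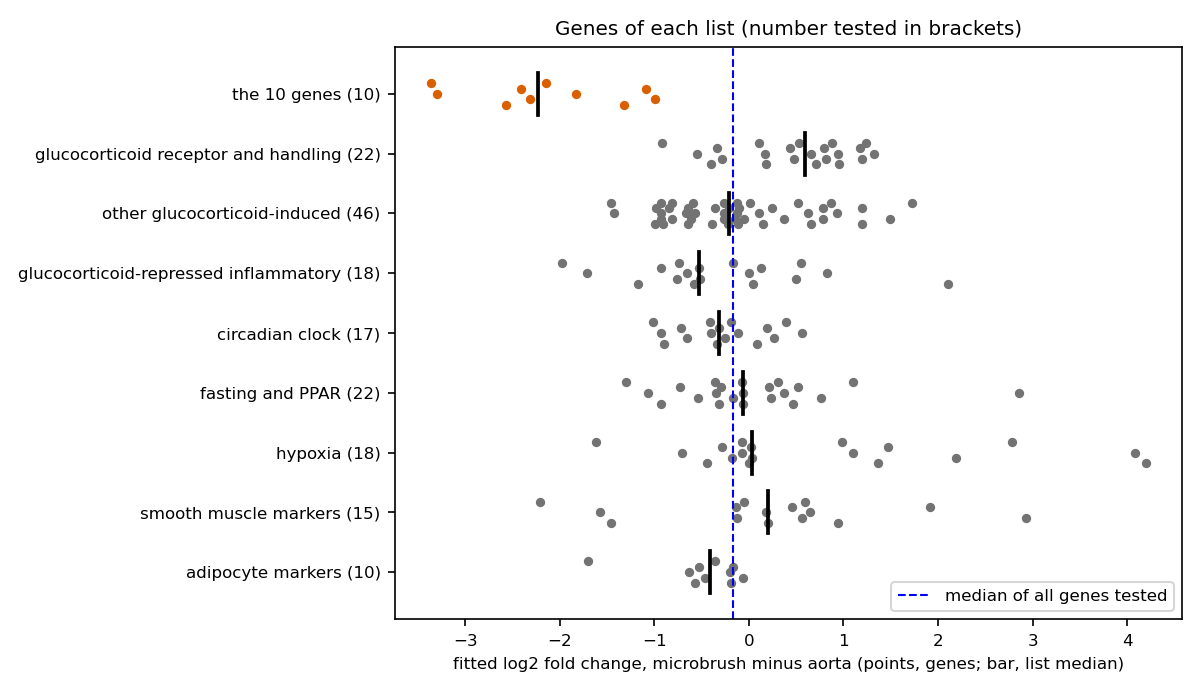
Fitted log2 fold changes of microbrush minus aorta (x axis) for the genes of 9 lists (y axis, number tested in brackets); points are genes, black bars list medians, and the dashed line the median of all genes tested (-0.17). The 10 genes were picked for lying to the left (median -2.23), and the medians of the other lists lie between -0.52 and 0.59.

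Blood and wire libraries had no part in the choice of the 10 genes, so they were compared by test. Of the 9 genes tested (HIF3A was too low), 4 were higher and 5 lower on the wire in value, with a median of -0.06 where all genes had -0.34. None passed edgeR's test, 0 had an unadjusted p under 0.05, and DESeq2 and limma voom called 0. Of all 16461 genes, 0.0486% passed by edgeR, 1.49% by DESeq2 and 2.21% by limma voom. The smallest p-values belonged to ANGPTL4 (-3.60, SE 2.55, edgeR adjusted p = 1), with no count on 3 of 4 wires, and FKBP5 (-1.31, SE 1.01, edgeR adjusted p = 1). With 4 against 2 libraries, of which wires 2 and 3 held few genes, the SEs of 0.84 to 2.55 leave room for large differences either way.

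**Figure D4:**
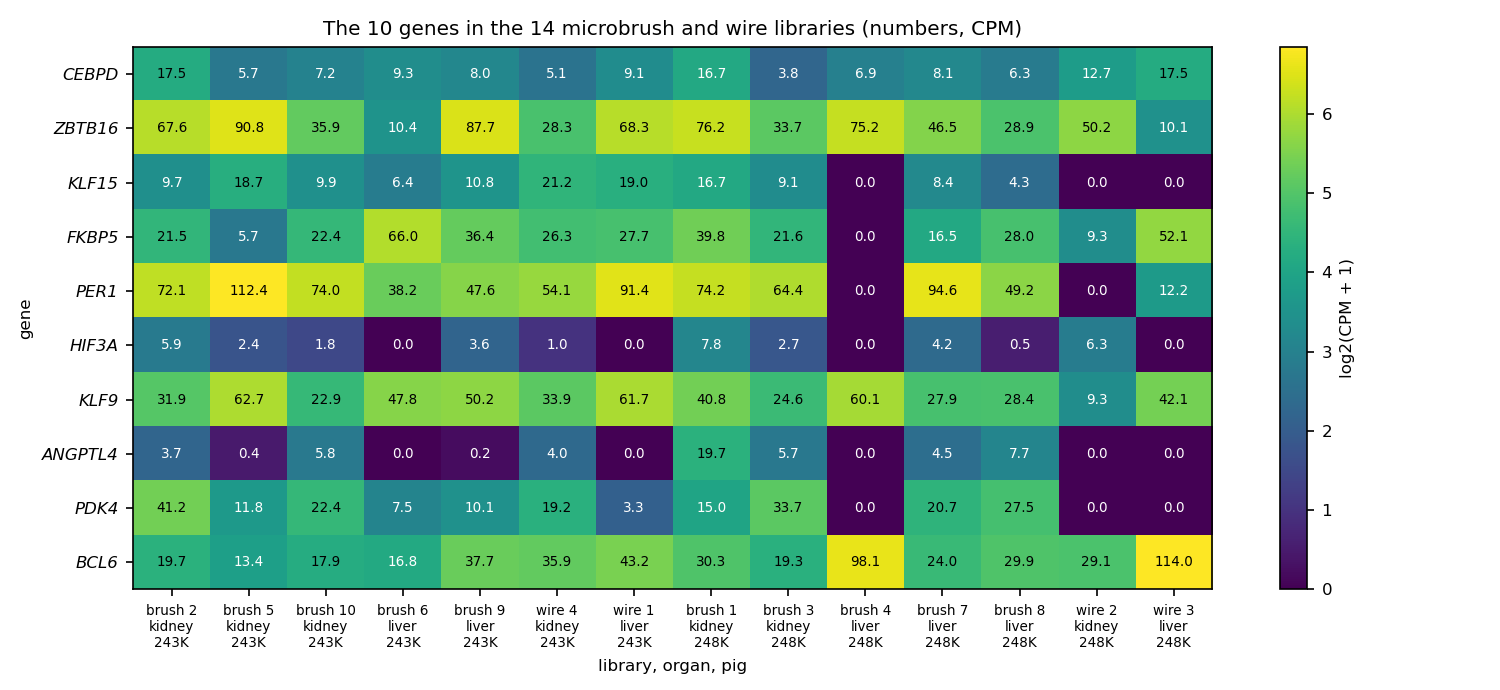
The 10 genes (rows) in the 14 microbrush and wire libraries (columns, with organ and pig); colour is log2(CPM + 1) and numbers are CPM. Microbrush 4 and wires 2 and 3 have the most zeros (6, 4 and 4 of 10 genes), and ANGPTL4 and PDK4 are lowest where libraries hold fewest genes.

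Differences among the microbrush libraries were also independent of the choice, which used them together. Between kidney and liver, with the pig in the model, 0 of 9 genes passed (0 at an unadjusted p under 0.05, and 0 by DESeq2 or limma voom), as did 0 of all 15013 genes (0%) by edgeR and limma voom and 5.03% by DESeq2. Fitted kidney minus liver changes had a median of 0.57, the same size as the 0.58 of all genes. ANGPTL4 had the smallest p (3.05, SE 1.77, edgeR adjusted p = 0.999), with 19.7, 3.71, 5.68, 0.407 and 5.83 CPM in kidney and 0, 0, 4.50, 7.71 and 0.163 CPM in liver. KLF15 followed (1.20, SE 1.31, adjusted p = 0.999), with 12.8 ± 4.54 CPM in kidney and 5.97 ± 4.10 CPM in liver (SD, n = 5 each), by edgeR. Between pig 243K and pig 248K, with the organ in the model, 0 of 9 passed as well (0 at an unadjusted p under 0.05, 0 by DESeq2 or limma voom, and of all genes 0% by edgeR and limma voom and 0.00666% by DESeq2). ANGPTL4 again had the smallest p (-3.33, SE 1.78, edgeR adjusted p = 1), with 2.02 ± 2.62 CPM in pig 243K and 7.53 ± 7.39 CPM in pig 248K. BCL6 followed at -0.69 (SE 1.10), with 21.1 ± 9.53 against 40.3 ± 32.6 CPM. The latter mean rests on microbrush 4 (98.1 CPM, the others 19.3 to 30.3 CPM), and without it the change was -0.39. The other genes lay between -0.49 and 0.39, with SEs of 0.98 to 1.32.

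Some of these values differed with the number of genes in a microbrush library. The share of all genes that differed in this way was not computed, so nothing particular to the 10 genes is read from it. A library with counts for few genes has more genes at 0 by definition. In the 6 microbrush libraries with at least 18000 genes ANGPTL4 had 3.71 to 19.7 CPM, and in microbrushes 4, 5, 6 and 9 it had 0 to 0.407 CPM. PDK4 had 14.98 to 41.2 CPM in the former and 0 to 11.8 CPM in the latter. KLF9 lay the other way, with 22.9 to 40.8 CPM in the 6 and 47.8 to 62.7 CPM in the 4. The remaining members overlapped between the 6 and the 4. Of those 4 libraries, 3 came from pig 243K and 3 from liver. Both kinds of library occurred together in kidney of pig 243K and in liver of pig 248K. In the former, microbrush 5 had 0.407, 11.8 and 62.7 CPM of ANGPTL4, PDK4 and KLF9, against 3.71, 41.2 and 31.9 CPM in microbrush 2 and 5.83, 22.4 and 22.9 CPM in microbrush 10. In the latter, microbrush 4 had 0, 0 and 60.1 CPM, against 4.50, 20.7 and 27.9 CPM in microbrush 7 and 7.71, 27.5 and 28.4 CPM in microbrush 8. The order was thus the same within a pig and organ, with 1 library of few genes in each. On the wires KLF9 did not keep this order. It had 9.28 CPM in wire 2 (9714 genes) and 42.1 CPM in wire 3 (10165 genes), against 61.7 and 33.9 CPM in wires 1 and 4. In the 6 libraries alone, every aorta library stood above every microbrush library in 8 of the 10 genes, now with BCL6, as in 3.27% of all genes. The fitted changes against aorta were then -3.16 for CEBPD, -3.46 for ZBTB16, -2.31 for FKBP5, -1.93 for PER1, -1.03 for ANGPTL4 and -0.55 for PDK4.

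Among the microbrush libraries no single one carried the 10 genes. Microbrush 5 was highest for ZBTB16, KLF15, PER1 and KLF9, microbrush 1 for HIF3A and ANGPTL4, microbrush 2 for CEBPD and PDK4, microbrush 6 for FKBP5 and microbrush 4 for BCL6. Microbrush 4, with counts for 3831 genes, had no count for 6 of the 10, yet it had 75.2 CPM of ZBTB16, 60.1 CPM of KLF9 and 98.1 CPM of BCL6. In that library 3 counts correspond to 1.30 CPM. In aorta, library 4 was highest for 8 of the 10 genes, and PDK4 (library 2) and PER1 (library 3) were the exceptions. The share of all genes with this order was not computed. Aorta 4 also had the highest aorta sums of the receptor and handling genes (1874 CPM) and of the other glucocorticoid-induced genes (2648 CPM).

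The genes whose levels ranked the libraries most like the mean of the 10 were EFNB1 (Spearman correlation 0.91), DHTKD1 (0.89), MORC4 (0.89), SGSM1 (0.89) and MTUS2 (0.89), among 9716 genes over 20 libraries. The aorta libraries, which share an animal, hold the top of that order. Over the 14 catheter libraries alone, and among 9443 genes, they were MMP11 (0.93), GLE1 (0.92), NAPEPLD (0.91), TRIM66 (0.90) and PUF60 (0.90). No gene was on both lists of 5. The libraries differ in content, which moves many genes together, so these are descriptions of rank only.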

How the data were processed

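The deposited table held estimated counts per Ensembl gene, made by the authors and not scaled between samples. Per the submitters' processing notes, Salmon, DESeq2 and build Sscrofa11.1 were used, while versions, annotation release and strand setting are not given in the sources used here. Of the 24358 genes, 14692 had a symbol in the supplied names, and members were matched by symbol, as were their RefSeq positions on Sscrofa11.1. Per the labels, libraries were made from total RNA with SMARTer Pico. Counts were rounded (11.9% of values were not whole). The members and lists were chosen with earlier results of these data known.

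Levels are counts per 1000000 after TMM scaling over the 20 libraries with at least 100000 counts, and blood 2 (5634 counts) was left out of them and of every main fit. For each comparison a model over all genes was fitted to the libraries of the groups compared (edgeR 4.0.16, R 4.3.3), after filterByExpr (minimum count 10). The robust quasi-likelihood test called a gene where its p, adjusted by Benjamini-Hochberg, was under 0.05. An SE is the fold change divided by the square root of the F statistic. Organ and pig entered the microbrush fit together. The fits were also tested on simulated data.

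All 10 members were named. Of each other list, genes that passed, the 3 with the highest level and NR3C1 were named, and exceptions are marked. Some genes that this rule names are not reported here. Of tested member differences, the 2 with the smallest p per comparison were named. Alternatives were RLE scaling, unscaled CPM, no filter, a minimum count of 50, DESeq2 1.42.0, limma 3.58.1 voom with quality weights, each replicate left out in groups of 2 to 5, and the model without pig or organ. Runs on the 6 microbrush libraries with most genes and without wires 2 and 3 were chosen after seeing the data.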

Additional observations from a re-analysis of the deposited data

Results flagged for a closer look

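Among 30 groups of 4 or 10 libraries (10 genes in microbrush, wire and aorta), 5 held a library far from the others by Dixon's criterion. Its chance rate of about 1 in 20 is for normal values. Several of these groups hold zeros, so the number flagged cannot be set against that rate. HIF3A stood at 6.33 CPM in wire 2, with the next wire at 1.01 CPM. ANGPTL4 stood at 19.7 CPM in microbrush 1, with the next at 7.71 CPM, and at 4.05 CPM in wire 4, where the others had no count. BCL6 stood at 98.1 CPM in microbrush 4, with the next at 37.7 CPM, and at 114.003 CPM in wire 3, with the next at 43.2 CPM. Microbrush 4, wire 2 and wire 3 had counts for the fewest genes of the 14 catheter libraries (3831, 9714 and 10165), while microbrush 1 and wire 4 had 18609 and 18304, and the part of this in the values was not tested.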

How the results depend on the processing

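Of the 10 genes, none passed under any alternative in wire against blood, kidney against liver or pig against pig, and no single test of them reached an adjusted p under 0.05. This includes DESeq2, which called 246, 755 and 1 of all genes in those comparisons, the run without wires 2 and 3 (818 genes), and the kidney and liver fit without a replicate block for the pig. Of 27 such tested changes, 13 took the other sign under at least 1 alternative. The count of response list genes called between microbrush and aorta, 0 by edgeR, was 3 by DESeq2 (FOXO1 lower, ALDOA and LDHA higher), 11 by limma voom (8 lower, with DUSP1, ALDOA and LDHA higher), and 3 in the 6 microbrush libraries with most genes; the cause was not tested. The number of the 10 genes with aorta above every microbrush library was 7 or 8 under all 8 alternatives. Nothing is read from this, because the members were picked on that difference. Levels under about 1.5 CPM correspond to at most 3 counts in several libraries and could not be ranked.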
